A study of Mus musculus with 31 samples.

Results

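The complement component and receptor genes described here are 9 genes chosen by symbol from a count table of 24411 entries: C1qa, C1qb and C1qc, C4b, C3, Cfb, Cfp, and the receptors C3ar1 and C5ar1. All 9 were found, each in 1 row, and all 9 passed the filter on low counts in each of the 3 groups, so none entered the tests through a single group. They were measured by RNA-seq in Ly6C-high monocytes of C57BL/6J mice, the inflammatory blood monocytes that enter tissues and can mature there into macrophages. Healthy blood is 3 libraries from the blood of mice without a tumor. LLC blood is 3 libraries from the blood of mice that carried a subcutaneous tumor of LLC (Lewis lung carcinoma) cells, a transplantable mouse lung tumor line of the same strain background. LLC tumor is 3 libraries from such tumors. The same gate was used throughout: CD11b present, Ly6G absent, Ly6C high and MHC-II absent. No group carried an engineered allele or a drug treatment according to the labels. The labels give no age or sex, and they do not say how many animals made up a library, whether LLC blood and LLC tumor came from the same mice, or whether the libraries of a group came from separate animals. The p-values therefore measure the spread between these libraries, which may be technical in part. The series holds 31 samples, and its 22 chromatin samples were not analysed here.

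Complement is a cascade of plasma proteins that marks microbes, immune complexes and dying cells. C1q, a hexamer of trimers built from the A, B and C chains, starts the classical pathway by binding antibody or cell debris, after which C4 and C2 are cleaved. In the alternative pathway C3 fragments pair with factor B, and properdin stabilises the enzyme they form. Cleavage of C3 and C5 releases the peptides that signal through the receptors of C3ar1 and C5ar1. Most plasma complement is made by the liver, whereas C1q comes largely from macrophages and dendritic cells, and properdin is made by leukocytes. In tumors, C1q transcripts are widely used to mark a class of tumor-associated macrophages.

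Library totals ran from 10457492 counts in LLC blood 1 to 20706412 in LLC blood 3, and the LLC tumor libraries held 11075725 to 11572942. Levels are given as CPM, each count scaled to a common library total, as mean ± SD over 3 libraries, and are not corrected for transcript length, so they are compared between libraries and not between genes. Of the sorting markers, Itgam (CD11b) and Ly6c2 (Ly6C) were detected in every library, with Ly6c2 at 1099 to 1728 CPM in blood and 272 to 472 CPM in tumor. Ly6g was absent from the count table, so that part of the gate was not checked by its own marker. The 7 other neutrophil markers summed to 673 to 911 CPM in healthy blood, 786 to 1199 CPM in LLC blood and 340 to 619 CPM in LLC tumor. Of these 7, 1 rose and 0 fell in LLC blood against healthy blood. In LLC tumor against LLC blood 1 rose and 2 fell. H2-Ab1, an MHC class II gene, was present although the gate removed MHC-II-positive cells. It stood at 121 to 221 CPM in healthy blood, above all libraries of LLC blood (50.2 to 83.7 CPM) and LLC tumor (42.2 to 93.9 CPM). Summed markers of Ly6C-high monocytes were similar in size in the 3 groups, with healthy blood at 15907 to 16334 CPM, LLC blood at 16787 to 18367 CPM and LLC tumor at 15986 to 19478 CPM. Some libraries stood apart in markers of other cells. Healthy blood 2 held 167 CPM of B cell markers against 17.3 and 24.3 CPM in the other healthy blood libraries. LLC blood 1 held 414 CPM of fibroblast markers against 3.67 and 4.59 CPM in the other LLC blood libraries, and the LLC tumor libraries held 938, 3470 and 3929 CPM of them. Erythroid markers summed to 222, 573 and 650 CPM in healthy blood 1 to 3 and to 168, 919 and 363 CPM in LLC blood 1 to 3. In LLC tumor, epithelial tumor cell markers summed to 63.1 to 101 CPM, against 1.35 to 2.73 CPM in blood. Endothelial markers summed to 55.6 to 72.0 CPM there, against 16.6 to 23.7 CPM in blood. Batches are not named in the labels, and any batch aligned with the groups cannot be told apart from the group differences.

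The 9 genes fell into separate patterns. The 3 C1q genes and both anaphylatoxin receptor genes were many times higher in LLC tumor than in either blood group, Cfp rose by a smaller factor, and C3 was lowest in LLC tumor and highest in LLC blood. Within blood, LLC blood held less C1q RNA of all 3 chains than healthy blood and more C3 and Cfp RNA. Cfb and C4b did not pass the test in any of the 3 comparisons. Genes were called at an adjusted p under 0.05 in a single edgeR quasi-likelihood fit of all 9 libraries, adjusted by Benjamini-Hochberg over 12337 genes, and every adjusted p below is from it unless another fit is named.

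In LLC blood against healthy blood 5 of the 9 genes were called (C3 and Cfp higher, C1qa, C1qb and C1qc lower), where 23.6% of all tested genes were called, 14% higher and 9.61% lower. In LLC tumor against LLC blood 7 of the 9 were called, 6 higher and 1 lower, against a background of 61.3%, of which 29.6% of tested genes were higher and 31.7% lower. In LLC tumor against healthy blood 7 of the 9 were called, again 6 higher and 1 lower, against a background of 66.5% (33.5% higher and 33% lower). The share of called genes in the tumor comparisons is thus close to the background, and the direction and size differ from it: the median log2 fold change of the 9 was 3.59 in both tumor comparisons, beside -0.03 (against LLC blood) and -0.00 (against healthy blood) over all tested genes. In blood the median of the 9 was -0.27, beside -0.01 over all tested genes. Changes of at least 2-fold that passed the test were found for 3, 7 and 6 of the 9 in the 3 comparisons in this order, against 6.23%, 28.7% and 32.3% of tested genes. The libraries of the 2 groups did not overlap for 5, 7 and 7 of the 9, the same genes that were called, against 51.4%, 68.3% and 70.6% of tested genes. The LLC blood libraries enter the first 2 of these comparisons, the LLC tumor libraries the last 2 and the healthy blood libraries the first and the last, so the comparisons are not independent of each other.

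**Figure D1:**
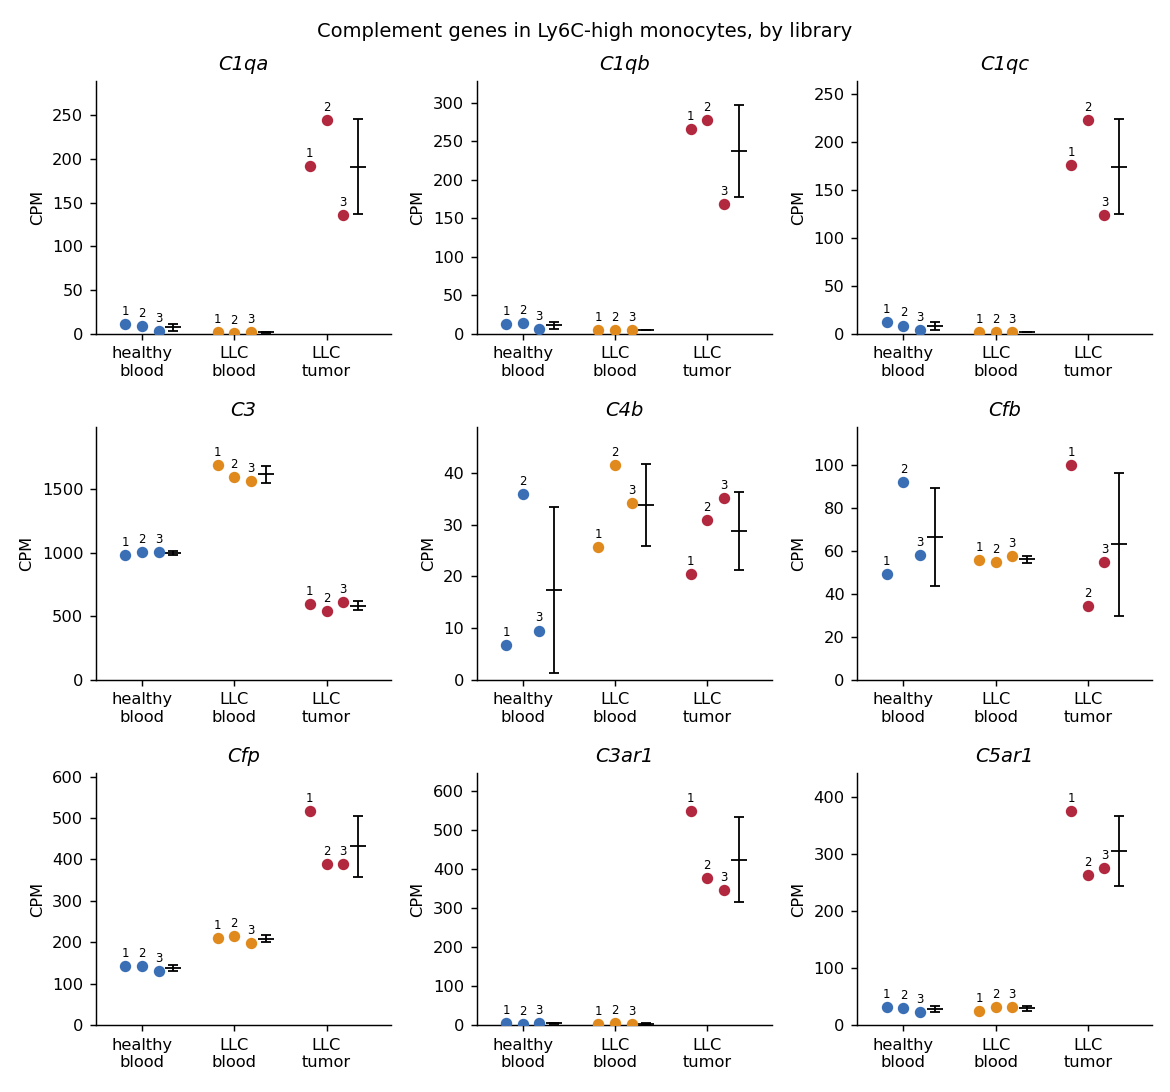
Level of each of the 9 complement genes in each library, in CPM on a linear axis from 0, with 1 numbered point per library and the group mean ± SD in black. The C1q genes, C3ar1 and C5ar1 lie far higher in LLC tumor than in blood, C3 lies lowest there, and the groups of Cfb and C4b overlap.

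C1qa, C1qb and C1qc encode the A, B and C chains of C1q and lie side by side on chromosome 4 (mm10; RefSeq annotation of GRCm38.p6), C1qb at chr4:136880126-136886200, C1qc at chr4:136889801-136892936 and C1qa at chr4:136895916-136898844. The genes are 3600 and 2979 bp apart, and all 3 lie within 18719 bp. Because the chains assemble together and the genes moved together, the 250 bases before the RefSeq start of C1qb (chr4:136886201-136886450) and C1qc (chr4:136892915-136893164, whose last bases overlap the annotated gene) are shown, 5′ to 3′ on the minus strand. Capitals mark matches, on either strand, to 5 motifs that were searched: GAGGAA (a core bound by ETS factors such as PU.1), TGCTGA (a MAF half-site), TGANTCA (AP-1), TTGCNNAA (C/EBP) and GAAANNGAA (part of the interferon-stimulated response element).
C1qb: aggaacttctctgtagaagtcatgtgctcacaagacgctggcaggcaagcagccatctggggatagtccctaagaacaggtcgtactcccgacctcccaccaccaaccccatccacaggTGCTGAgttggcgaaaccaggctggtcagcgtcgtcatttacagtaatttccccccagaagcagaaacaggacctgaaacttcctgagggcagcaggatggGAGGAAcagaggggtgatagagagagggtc
C1qc: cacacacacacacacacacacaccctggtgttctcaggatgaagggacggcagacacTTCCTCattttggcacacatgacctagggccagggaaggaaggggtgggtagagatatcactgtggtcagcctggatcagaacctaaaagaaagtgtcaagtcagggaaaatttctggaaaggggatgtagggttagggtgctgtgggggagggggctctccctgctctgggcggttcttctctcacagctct

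In C1qb, TGCTGA lay 131 to 126 bases before the start and GAGGAA 30 to 25 bases before it. In C1qc, GAGGAA was present as its reverse complement TTCCTC, 193 to 188 bases before the start. Among 32851 RefSeq promoter windows of the same length, 23.3% held GAGGAA, 16.1% TGCTGA, 6.75% TGANTCA, 9.56% TTGCNNAA and 7.13% GAAANNGAA. A match describes these letters only. RefSeq promoter sequence was matched for 6 of the 9 genes. C1qa, Cfb and C4b were not matched.

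C1qa was measured at 10.7, 8.42 and 3.13 CPM in healthy blood 1 to 3, at 2.01, 1.38 and 1.88 CPM in LLC blood and at 192, 245 and 136 CPM in LLC tumor. The 3 groups did not overlap, and healthy blood 3 was the lowest of its group. C1qb stood at 13.01, 13.58 and 5.89 CPM in healthy blood, at 4.97, 4.84 and 5.26 CPM in LLC blood and at 266, 278 and 168 CPM in LLC tumor. C1qc stood at 12.1, 8.66 and 3.92 CPM in healthy blood, at 2.30, 1.80 and 2.08 CPM in LLC blood and at 176, 223 and 124 CPM in LLC tumor. For each of the 3 genes the order was LLC blood, then healthy blood, then LLC tumor, with no overlap between neighbours. Healthy blood 3 was the lowest healthy library and LLC tumor 3 the lowest tumor library for all 3 genes. The blood levels rest on few reads, between 20 and 39 counts of C1qa per LLC blood library and 51 to 150 per healthy blood library, against 1579 to 2765 per tumor library.

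In LLC blood against healthy blood, C1qa fell by 2.09 ± 0.48 on the log2 scale (± SE, adjusted p = 0.0129), a level 4.26-fold lower. C1qc fell by 2.02 ± 0.44 (adjusted p = 0.0102), 4.05-fold lower. C1qb fell by 1.12 ± 0.35 (adjusted p = 0.0463), 2.18-fold lower. The call of C1qc held when each of the 9 libraries was left out in turn. The call of C1qa was lost without LLC blood 2 (log2 fold change -1.94, adjusted p = 0.0595) or LLC blood 3 (-2.17, adjusted p = 0.0532). The call of C1qb was lost without healthy blood 1 (-0.97, adjusted p = 0.137), healthy blood 2 (-0.98, adjusted p = 0.128), LLC blood 1 (-1.10, adjusted p = 0.100), LLC blood 2 (-1.08, adjusted p = 0.135), LLC blood 3 (-1.16, adjusted p = 0.123) or LLC tumor 2 (-1.12, adjusted p = 0.0584). Lower expression per cell and fewer C1q-expressing cells in the sort cannot be told apart in bulk RNA.

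Markers of other cells were compared in the same blood libraries. The summed level of 8 macrophage markers ranged over 1776 to 2048 CPM in the healthy libraries and over 1173 to 1264 CPM in the LLC blood libraries, and none of the 8 was at 0. Of the 8, 2 fell, Apoe, the lipid-carrying apolipoprotein E (log2 fold change -1.66, adjusted p = 0.00229), and Mrc1, the mannose receptor CD206 (-1.70, adjusted p = 0.0023), and 1 rose, Gpnmb, while 5 did not pass the test. Without Apoe, the sum of the other 7 was 853 to 935 CPM in the healthy libraries and 847 to 940 CPM in the LLC blood libraries, and overlapped. The summed level of 7 dendritic cell markers, the other common source of C1q, ranged over 78.8 to 85.3 CPM in the healthy libraries and over 24.6 to 39.0 CPM in the LLC blood libraries, and 4 of the 7 fell. All 6 natural killer cell markers fell, with a sum of 145 to 310.3 CPM in the healthy libraries against 21.8 to 36.5 CPM, and 4 of 6 T cell markers fell, with a sum of 24.4 to 104 CPM against 12.0 to 13.9 CPM. Over healthy blood 1 to 3, the summed level of the 3 C1q genes was 35.8, 30.7 and 12.9 CPM. The T cell sum there was 24.4, 68.1 and 104 CPM, in the opposite order. The natural killer cell sum, at 145, 216 and 310 CPM, was also in the opposite order. The macrophage sum was 2048, 1928 and 1776 CPM, and the dendritic cell sum 85.3, 78.8 and 82.2 CPM. The part of these cells in the C1q difference was not tested.

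In LLC tumor the C1q genes were at the highest levels of the 3 groups. Against LLC blood, C1qa rose by 6.96 ± 0.46 on the log2 scale (adjusted p = 2.06e-06, 124.9-fold). C1qc rose by 6.61 ± 0.43 (adjusted p = 1.80e-06, 97.8-fold) and C1qb by 5.77 ± 0.36 (adjusted p = 1.48e-06, 54.5-fold). Against healthy blood the 3 rises were of nearly one size, at 4.87 ± 0.39 for C1qa (29.3-fold, adjusted p = 5.68e-06), 4.65 ± 0.33 for C1qb (25.1-fold, adjusted p = 2.74e-06) and 4.59 ± 0.37 for C1qc (24.2-fold, adjusted p = 5.43e-06). All 6 calls held without each library in turn. Of the 8 macrophage markers, 6 rose and 1, Adgre1 (F4/80), fell in LLC tumor against LLC blood, and their sum was 2765 to 3827 CPM in tumor. Mrc1 went from a mean of 6.95 CPM in LLC blood to 391 CPM in tumor. The dendritic cell marker sum was 6.32 to 9.84 CPM in tumor, below both blood groups. The part of macrophages in the rise was not tested.

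The share of C1qb among the C1q counts was also compared. The sum of the 3 C1q genes was 35.8, 30.7 and 12.9 CPM in healthy blood, 9.28, 8.02 and 9.22 CPM in LLC blood and 634, 747 and 429 CPM in LLC tumor. C1qb made up 36.3%, 44.3% and 45.5% of these counts in healthy blood, 53.6%, 60.3% and 57.1% of those in LLC blood and 41.9%, 37.3% and 39.3% of those in LLC tumor. The LLC blood libraries held the highest shares and did not overlap with either other group. The mean share was 57.0% ± 3.37 in LLC blood, against 42.0% ± 4.98 in healthy blood and 39.5% ± 2.34 in LLC tumor (SD, n = 3). A 2-sided exact permutation test gave p = 0.1 for LLC blood against healthy blood and for LLC tumor against LLC blood, the smallest value that 3 against 3 libraries allow, and p = 0.5 for LLC tumor against healthy blood. Adjusted over the 3 relations by Benjamini-Hochberg, these exact p-values became 0.15, 0.15 and 0.5. The shares in LLC blood rest on 97 to 191 C1q counts, and the 95% binomial interval (Wilson) of the lowest, LLC blood 1, was 43.7% to 63.2%, which covers counting error only. Since longer transcripts give more reads, a share of counts is not a share of molecules.

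**Figure D2:**
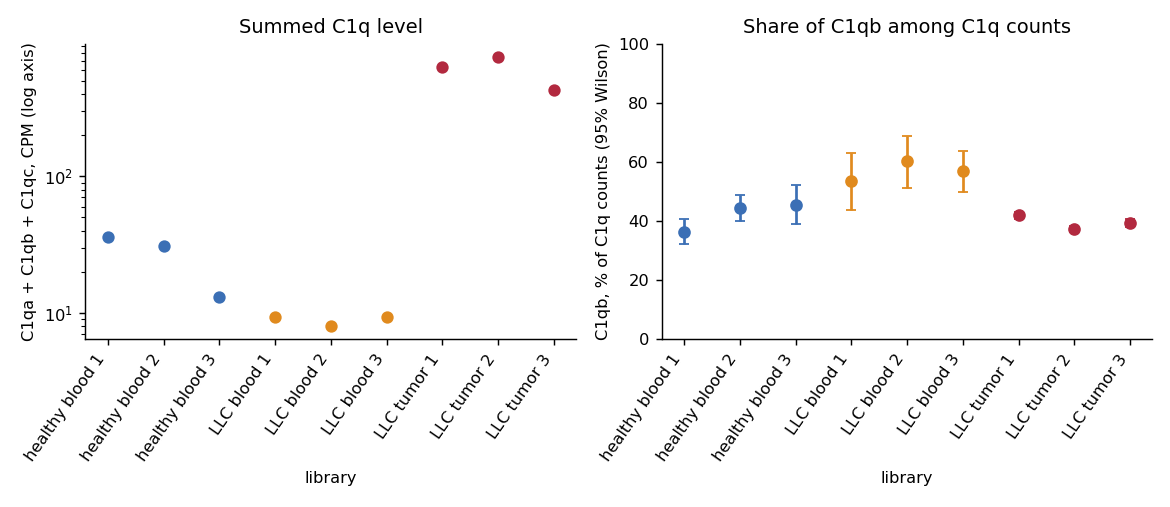
Summed CPM of C1qa, C1qb and C1qc per library on a log axis (left) and the percentage of C1q counts that came from C1qb, with 95% Wilson intervals (right). The sum was lowest in LLC blood, and the LLC blood shares of 53.6% to 60.3% lay above those of all other libraries.

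C4b encodes complement C4, the protein cleaved after C1q has bound, at chr17:34728139-34743902. It was measured at 6.65, 36.0 and 9.52 CPM in healthy blood, at 25.7, 41.5 and 34.3 CPM in LLC blood and at 20.4, 30.9 and 35.2 CPM in LLC tumor. Healthy blood 2 was within the range of LLC blood and above every tumor library, while healthy blood 1 and 3 were below all other libraries. The log2 fold change was 0.93 ± 0.52 in LLC blood against healthy blood (95% interval -0.23 to 2.10, adjusted p = 0.226), -0.05 ± 0.51 in LLC tumor against LLC blood (-1.20 to 1.10, adjusted p = 0.938) and 0.88 ± 0.52 in LLC tumor against healthy blood (-0.30 to 2.05, adjusted p = 0.164). Without healthy blood 2 the first was 1.98 (adjusted p = 0.00278) and the last 1.95 (adjusted p = 0.000266), both past the threshold. With the replicate number as a block, C4b was also called in LLC tumor against healthy blood (log2 fold change 1.14, adjusted p = 0.0427). Healthy blood 2 was the library with 167 CPM of B cell markers, and the part of B cells in its C4b level was not tested.

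C4b shares reads with C4a, which RefSeq lists as a transcribed pseudogene 65189 bp away, and its estimated counts were not whole numbers in any of the 9 libraries. C4a itself stood at 0.254 to 1.22 CPM. The sum of both genes had log2 fold changes of 0.91 (adjusted p = 0.208), -0.06 (adjusted p = 0.929) and 0.85 (adjusted p = 0.151) in the same 3 comparisons.

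C3, the central component on which all pathways converge, lies at chr17:57203967-57228136. The 250 bases before its RefSeq start (chr17:57228137-57228386, minus strand), shown because C3 moved opposite to the C1q genes, held TTGCNNAA as TTGCGAAA 45 to 38 bases before the start and TGCTGA as its reverse complement TCAGCA 182 to 177 bases before it, in capitals.
C3: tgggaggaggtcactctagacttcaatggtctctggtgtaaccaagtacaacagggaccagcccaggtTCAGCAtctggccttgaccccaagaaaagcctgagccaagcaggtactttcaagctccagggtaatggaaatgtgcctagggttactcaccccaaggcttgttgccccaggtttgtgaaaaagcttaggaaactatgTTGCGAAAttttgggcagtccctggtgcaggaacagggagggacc

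C3 stood at 977, 1004 and 1002 CPM in healthy blood, at 1686, 1595 and 1562 CPM in LLC blood and at 596, 541 and 607 CPM in LLC tumor. The libraries of a group lay close together, and the 3 groups were separate, with LLC tumor lowest and LLC blood highest. C3 rose by 0.67 ± 0.12 on the log2 scale in LLC blood against healthy blood (adjusted p = 0.0043, 1.59-fold). It fell by 1.26 ± 0.12 in LLC tumor against LLC blood (adjusted p = 2.07e-05, 2.40-fold lower) and by 0.59 ± 0.12 in LLC tumor against healthy blood (adjusted p = 0.00191, 1.51-fold lower). All 3 calls held without each library in turn. Liver RNA was at or near 0: the sum of 5 hepatocyte markers was at most 0.369 CPM in healthy blood, 1.94 CPM in LLC blood and 0.0886 CPM in LLC tumor, and Apoa1, Serpina1a, Ttr and Fgb were at 0 in every tumor library. The fibroblast marker sum was up to 414 CPM in LLC blood 1, which was also the LLC blood library with the highest C3, and 938 to 3929 CPM in LLC tumor, where C3 was lowest. The part of fibroblasts in C3 was not tested.

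Cfb encodes factor B, the serine protease of the alternative pathway, at chr17:34856374-34862514. It stood at 49.1, 92.1 and 57.8 CPM in healthy blood, at 55.6, 54.6 and 57.5 CPM in LLC blood and at 99.7, 34.2 and 54.8 CPM in LLC tumor. The groups overlapped, and a single library was high in each of healthy blood (healthy blood 2) and LLC tumor (LLC tumor 1). The log2 fold change was -0.27 ± 0.40 in LLC blood against healthy blood (95% interval -1.18 to 0.63, adjusted p = 0.667). It was 0.43 ± 0.41 in LLC tumor against LLC blood (-0.48 to 1.35, adjusted p = 0.379) and 0.16 ± 0.40 in LLC tumor against healthy blood (-0.75 to 1.07, adjusted p = 0.746), and without LLC tumor 1 both turned negative, at -0.20 and -0.52. C2, which codes for the classical pathway's counterpart of factor B and lies 87 bp from Cfb, stood at 0.0613 to 1.38 CPM and was not tested.

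**Figure D3:**
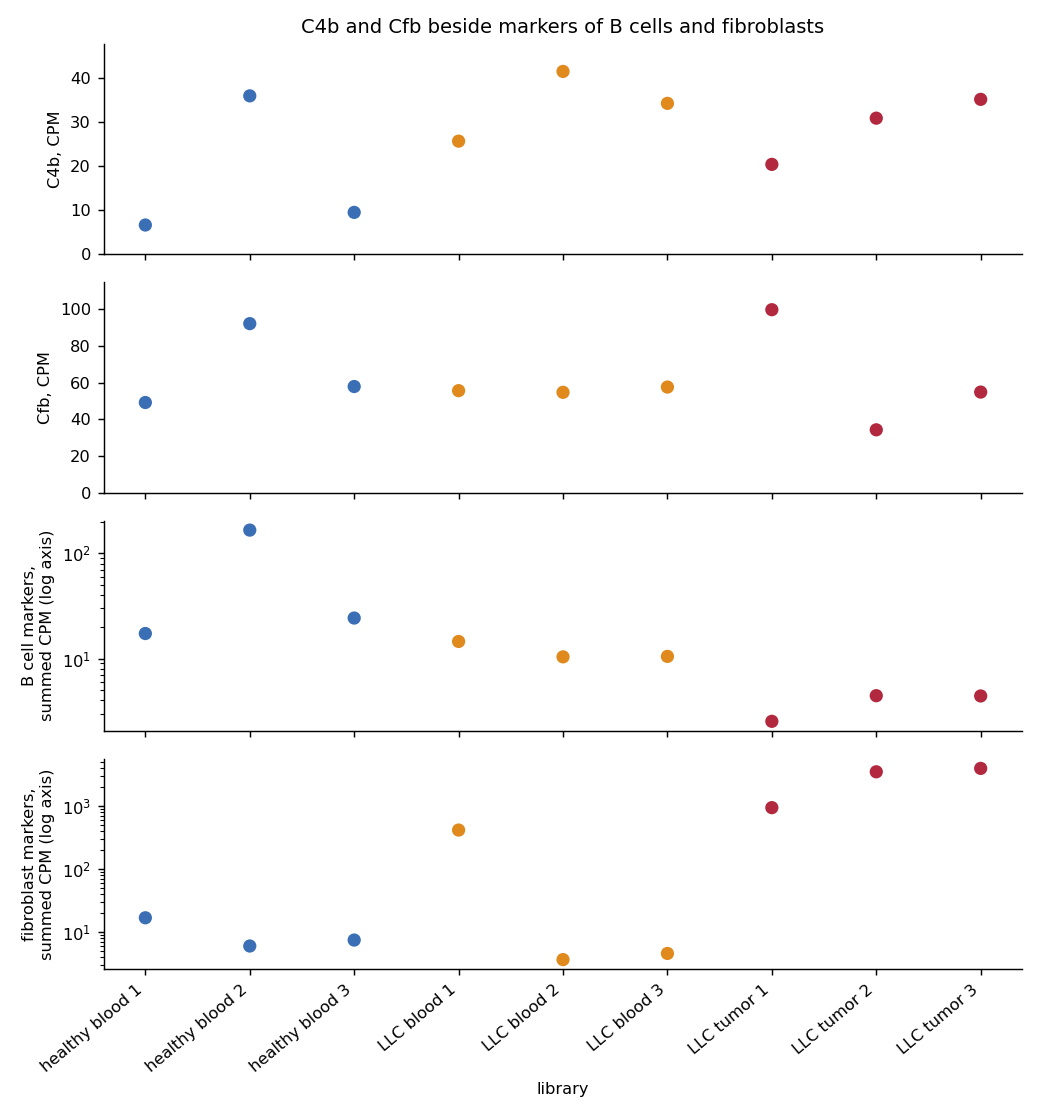
C4b and Cfb in each library in CPM, beside the summed CPM of B cell and fibroblast markers in the same libraries on log axes. Healthy blood 2 is high for C4b, Cfb and B cell markers, and LLC tumor 1 is high for Cfb and holds the lowest fibroblast sum among the tumor libraries, 938 CPM.

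Cfp encodes properdin, the plasma protein that stabilises the alternative pathway's C3 convertase, at chrX:20925454-20931555. It stood at 143, 143 and 131 CPM in healthy blood, at 210.3, 216 and 199 CPM in LLC blood and at 516, 389 and 390.0 CPM in LLC tumor. The order of the groups was healthy blood, LLC blood, LLC tumor, with no overlap. In LLC tumor Cfp rose by 1.28 ± 0.18 on the log2 scale against LLC blood (adjusted p = 0.000187, 2.43-fold) and by 1.84 ± 0.18 against healthy blood (adjusted p = 1.84e-05, 3.57-fold). In LLC blood against healthy blood it rose by 0.56 ± 0.17 (adjusted p = 0.0455, 1.47-fold), a call that was lost without any 1 of the 6 blood libraries. The log2 fold change was then 0.58, 0.52 and 0.52 without healthy blood 1, 2 and 3 (adjusted p = 0.106, 0.130 and 0.148) and 0.56, 0.54 and 0.59 without LLC blood 1, 2 and 3 (adjusted p = 0.0881, 0.120 and 0.101). The call held in the other 13 of 19 alternatives. Among these, the log2 fold change was 0.55 with only the 6 blood libraries, 0.55 with limma-voom (adjusted p = 0.000183) and 0.51 without LLC tumor 1. Without LLC tumor 1, 5064 of all tested genes were called in this comparison, against 2917 with all 9 libraries. The cause of this difference was not tested.

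C3ar1 and C5ar1 encode the G protein-coupled receptors of the C3a and C5a peptides, which draw and activate myeloid cells. C3ar1 lies at chr6:122847140-122856157 and C5ar1 at chr7:16246743-16259540, 2588 bp from its paralog C5ar2. The 250 bases before the RefSeq start of C3ar1 (chr6:122856158-122856407, minus strand) are shown because this gene had the largest rise of the 9 in LLC tumor against healthy blood. In capitals are TCAGCA, the reverse complement of TGCTGA, 144 to 139 bases before the start and TGACTCA, a match to TGANTCA, 22 to 16 bases before it.
C3ar1: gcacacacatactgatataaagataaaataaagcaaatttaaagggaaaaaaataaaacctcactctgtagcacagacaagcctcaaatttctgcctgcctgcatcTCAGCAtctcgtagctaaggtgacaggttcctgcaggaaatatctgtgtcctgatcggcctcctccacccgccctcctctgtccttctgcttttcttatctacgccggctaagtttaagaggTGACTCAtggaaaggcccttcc

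TGCTGA was also found 17 to 12 bases before the RefSeq start of C5ar1, in a window of which 202 of the 250 bases lie inside the annotated gene, both motif matches included, so that it is not printed. It was thus in the windows of 4 of the 6 matched genes (C1qb, C3, C3ar1 and C5ar1), beside 16.1% of all windows. C3, one of these 4, fell in LLC tumor, while the other 3 rose. GAAANNGAA matched in the C5ar1 window alone, as its reverse complement 66 to 58 bases before the start, and Cfp held no match to any of the 5 motifs.

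C3ar1 stood at 6.43, 4.73 and 5.40 CPM in healthy blood, at 4.40, 5.53 and 3.43 CPM in LLC blood and at 549, 379 and 347 CPM in LLC tumor. The blood groups overlapped, and every tumor library was far above both. C3ar1 rose by 6.83 ± 0.32 on the log2 scale in LLC tumor against LLC blood (adjusted p = 3.68e-07, 113.7-fold) and by 6.48 ± 0.32 against healthy blood (adjusted p = 3.57e-07, 89.2-fold). In LLC blood against healthy blood the log2 fold change was -0.35 ± 0.33 (95% interval -1.09 to 0.39, adjusted p = 0.479).

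C5ar1 stood at 32.7, 30.8 and 23.5 CPM in healthy blood and 24.7, 32.3 and 31.7 CPM in LLC blood, and at 374, 264 and 274 CPM in LLC tumor. Again the blood groups overlapped and the tumor libraries were above both. C5ar1 rose by 3.59 ± 0.24 on the log2 scale against LLC blood (adjusted p = 2.38e-06, 12.0-fold) and by 3.59 ± 0.24 against healthy blood (adjusted p = 1.94e-06, 12.1-fold). In LLC blood against healthy blood the log2 fold change was 0.01 ± 0.23 (95% interval -0.51 to 0.53, adjusted p = 0.994). LLC tumor 1, whose TMM scaling factor of 0.798 was the lowest of the 9 libraries (0.968 to 1.07 in the others), was the highest tumor library for C3ar1, C5ar1, Cfp and Cfb. The calls of these receptors in tumor held without it.

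**Figure D4:**
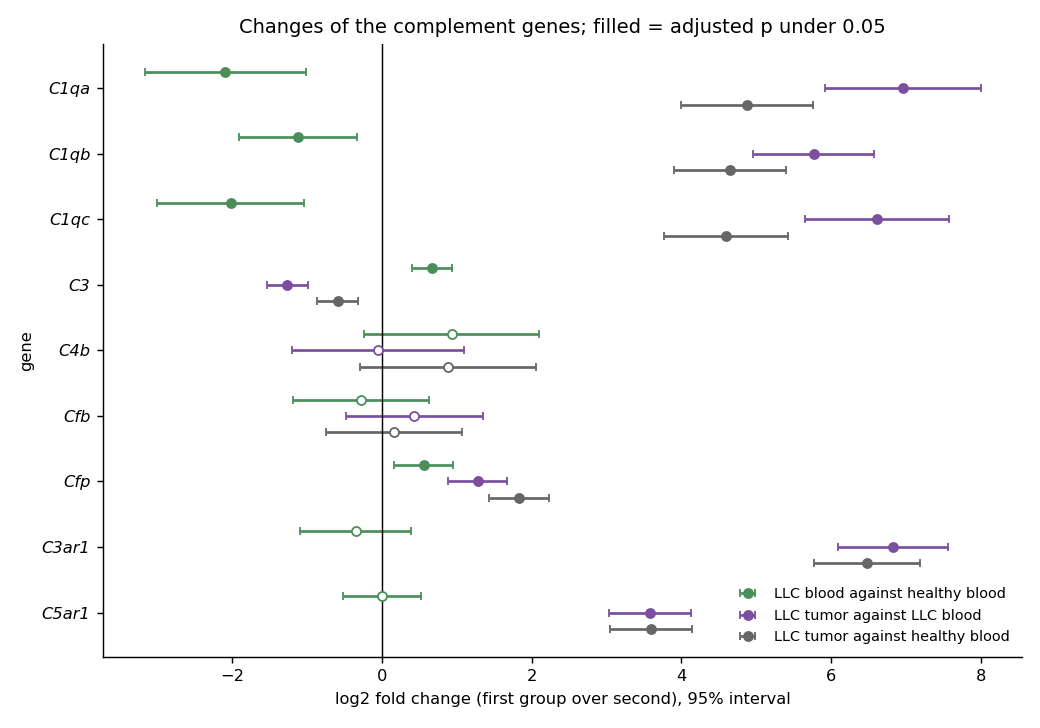
Log2 fold change of each of the 9 genes in the 3 comparisons, with 95% intervals from the edgeR fit and filled points where the adjusted p was under 0.05. C1qa, C1qb, C1qc, C3ar1 and C5ar1 lie between 3.59 and 6.96 in the tumor comparisons, and the intervals of Cfb and C4b cross 0 in all comparisons.

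Other genes of the pathway were taken from a list of 49, all of which were in the table. Of these, 20 were tested and 29 were not, 19 of them at 3 counts or fewer in every library. The untested genes include C2, Cfd (factor D) and 6 of the 7 terminal pathway genes, so most genes of the membrane attack complex were below the filter in these cells. Of the 20 tested, 12 reached the filter in all 3 groups, 4 through LLC tumor alone (C1s1, Masp1, Serping1 and Clu), and 4 in other ways (C4a, C8g, Cd46 and Cd55). A gene that was tested only because of the group where it is high had to differ, so the counts over the 20 are a description. In LLC blood against healthy blood 5 of the 20 rose and 1 fell, with a median log2 fold change of 0.49, beside 23.6% of all tested genes called. In LLC tumor against LLC blood 13 rose and 3 fell, median 0.82, beside 61.3% of all genes, and in LLC tumor against healthy blood 13 rose and 1 fell, median 1.43, beside 66.5%. Among the 12 that reached the filter in all groups, 5 rose in blood (median 0.28), 8 rose and 3 fell in LLC tumor against LLC blood (median 0.76), and 9 rose and 1 fell against healthy blood (median 1.43). Of the 20, 3 were called in blood without healthy blood 2, healthy blood 3, LLC blood 2 or LLC blood 3. Over all tested genes, these fits called 1873, 1697, 1494 and 1577 in this order, against 2917 with all 9 libraries.

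Among the 7 tested initiators of the classical and lectin pathways, 5 rose and 1 fell in LLC tumor against LLC blood, where 29.6% of all tested genes rose and 31.7% fell. C1s1 and Masp1 were tested through LLC tumor alone, and of the 4 initiators that reached the filter in all groups 3 rose and 1 fell. C1s1, the C1s protease that acts with C1q, stood at 3.52, 14.0 and 18.7 CPM in LLC tumor and at 1.69, 0.0692 and 0.00 CPM in LLC blood. It was at or under 3 counts in every healthy blood library, which makes its tumor level at least 62.1-fold higher than the mean of that floor over the group (0.194 CPM). Since C1s1 passed the filter through LLC tumor alone, no test of it is given. The fibroblast marker sum was likewise highest among the blood libraries in LLC blood 1 (414 CPM). In LLC tumor 1 to 3 it stood at 938, 3470 and 3929 CPM, the same order as C1s1. The other blood libraries, where C1s1 was at 3 counts or fewer, were not all in the order of C1s1. In LLC blood 2 and 3, for example, the fibroblast sum was 3.67 and 4.59 CPM. Of the 7 fibroblast markers, 4 rose in LLC tumor against LLC blood and 6 against healthy blood. Their part in C1s1 was not tested.

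The ficolins, lectins that start the lectin pathway, moved apart. Fcna stood at 1.62 ± 0.291 CPM in healthy blood, 1.19 ± 0.0445 in LLC blood and 9.38 ± 5.85 in LLC tumor (SD, n = 3), and rose by 3.14 ± 0.39 on the log2 scale against LLC blood (adjusted p = 0.000100) and by 2.67 ± 0.38 against healthy blood (adjusted p = 0.000196). Fcnb, a ficolin of immature myeloid cells, stood at 3.50, 3.62 and 3.74 CPM in healthy blood, at 11.7, 20.7 and 16.8 CPM in LLC blood and at 2.26, 5.94 and 4.49 CPM in LLC tumor. It rose by 2.15 ± 0.28 in LLC blood against healthy blood (adjusted p = 0.000974) and fell by 1.78 in LLC tumor against LLC blood (adjusted p = 0.000421), the latter named after its value was seen. Colec12, a scavenger receptor with a collectin domain, rose by 2.35 ± 0.26 in LLC tumor against LLC blood, from 4.17 to 19.2 CPM (adjusted p = 4.41e-05), and by 2.02 ± 0.25 against healthy blood (adjusted p = 8.80e-05).

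All 6 tested receptors other than C3ar1 and C5ar1 rose in LLC tumor against healthy blood, where 33.5% of all tested genes rose, and 5 of the 6 rose against LLC blood, where 29.6% did. C5ar2, the second C5a receptor, stood at 6.98 ± 1.23 CPM in healthy blood, at 12.5 ± 1.29 CPM in LLC blood and at 19.5 ± 2.6 CPM in LLC tumor. It rose by 0.82 ± 0.20 in LLC blood against healthy blood (adjusted p = 0.0182) and by 0.86 ± 0.20 in LLC tumor against LLC blood (adjusted p = 0.0041). Unlike its neighbour C5ar1, which had a log2 fold change of 0.01 in blood, C5ar2 was thus called there, and the difference between the 2 genes was not tested. Itgam and Itgax, the alpha chains of the iC3b receptors CR3 and CR4, had mean levels of 922 and 54.9 CPM in healthy blood, of 1439 and 40.1 CPM in LLC blood and of 3405 and 176 CPM in LLC tumor.

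Itgam rose by 0.62 ± 0.15 in LLC blood (adjusted p = 0.0154), by 1.46 ± 0.15 in LLC tumor against LLC blood (adjusted p = 2.91e-05) and by 2.08 ± 0.15 against healthy blood (adjusted p = 3.16e-06). It is also a sorting marker. Itgax rose by 2.37 ± 0.29 (adjusted p = 9.87e-05) and 1.89 ± 0.29 (adjusted p = 0.000315) in the same tumor comparisons. Cd93, first described as a C1q receptor, rose by 1.35 ± 0.18 in LLC blood against healthy blood (170.1 to 441 CPM, adjusted p = 0.00100) and by 2.13 ± 0.18 in LLC tumor against healthy blood (adjusted p = 7.53e-06). The blood calls of C5ar2 and Itgam were lost without healthy blood 2, healthy blood 3, LLC blood 2 or LLC blood 3. For C5ar2 the log2 fold change was then 0.81, 0.68, 0.74 and 0.83 (adjusted p = 0.0551, 0.0736, 0.0716 and 0.0565), and for Itgam 0.56, 0.59, 0.60 and 0.59 (adjusted p = 0.0689, 0.0683, 0.0560 and 0.0634).

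Cr1l, the rodent membrane regulator Crry, fell by 0.38 ± 0.11 in LLC tumor against LLC blood (adjusted p = 0.0112) and by 0.58 ± 0.11 against healthy blood (adjusted p = 0.00095), from 81.4 CPM in healthy blood and 72.1 in LLC blood to 47.9 in tumor. The 1 gene of the list that fell in LLC blood against healthy blood was Cd55, another membrane regulator, which was named after its value was seen. Cd55 stood at 0.143, 11.2 and 1.35 CPM in healthy blood and was at or under 3 counts in every LLC blood library (0.0483 to 0.208 CPM), so that the groups overlapped and healthy blood 2 alone was high. Its call was lost in 6 of the 9 fits that left out 1 library, those without healthy blood 2 or 3, LLC blood 1, 2 or 3, or LLC tumor 3, with adjusted p = 0.0523 to 0.173.

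**Figure D5:**
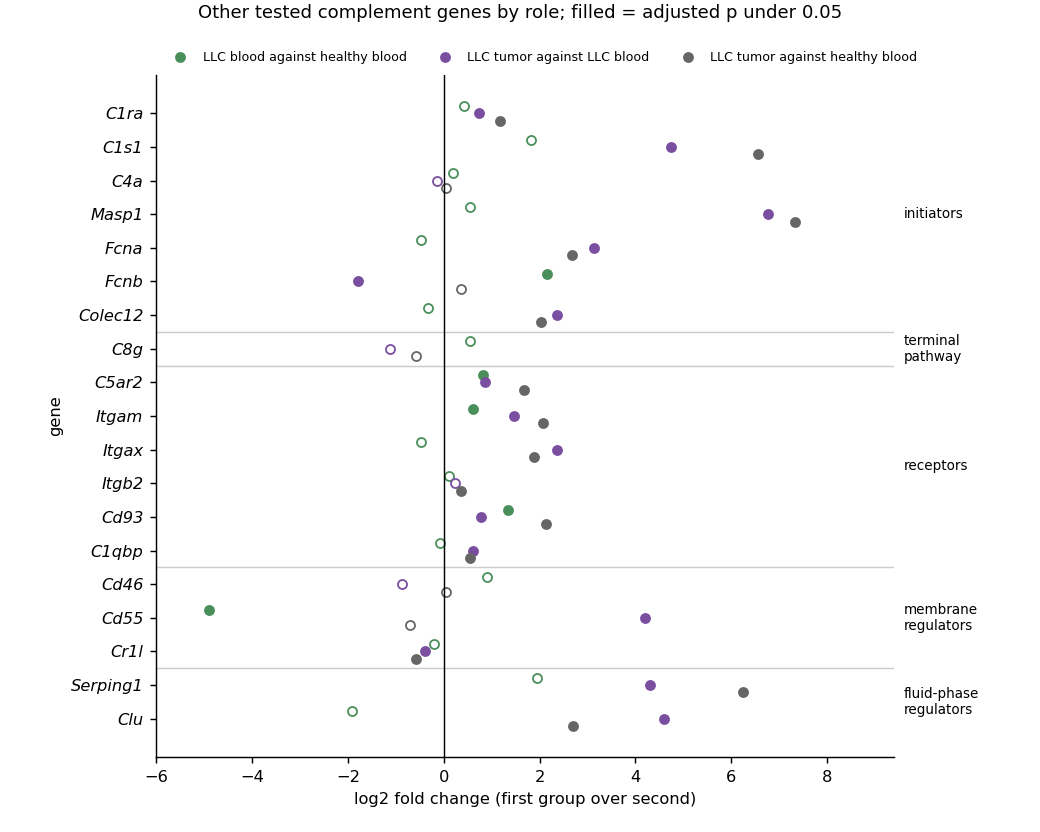
Log2 fold change of 19 of the 20 tested genes of the wider complement list in the 3 comparisons, grouped by role, with filled points where the adjusted p was under 0.05. All 6 receptors lie above 0 in LLC tumor against healthy blood, whereas Fcnb lies above 0 in LLC blood against healthy blood and below 0 in LLC tumor against LLC blood.

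Patterns over the 9 libraries were compared by Pearson's r of log2(CPM + 0.5), as a description, since the libraries fall into 3 groups and share those groups. The genes outside the 9 most like the mean of the C1q genes, among tested genes of at least 20 CPM, were Blcap (r = 0.993), Parvb (0.992), Cgnl1 (0.991), Jmjd6 (0.990) and Gtf2e2 (0.990). Their range was smaller than that of C1q: Cgnl1 went from 6.10 CPM in LLC blood and 10.5 in healthy blood to 48.4 CPM in LLC tumor. The genes most like C3 were Hacd4 (0.995), Ptpn1 (0.991), Itpr2 (0.991), Dock8 (0.989) and Cotl1 (0.989), all highest in LLC blood and lowest in LLC tumor, as in Hacd4, with 41.1 CPM in LLC tumor, 72.6 CPM in healthy blood and 115 CPM in LLC blood. Among the 9 genes, the r with the C1q mean was 0.968 for C3ar1, 0.961 for C5ar1, 0.814 for Cfp, 0.083 for C4b, -0.032 for Cfb and -0.955 for C3.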

How the data were processed

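RNA-seq counts of 9 libraries in 3 groups were used. The authors deposited a table of expected counts (estimated counts per gene symbol, not normalized), of which 8.56% to 9.73% per library were not whole, as when reads are divided between similar genes. The authors also deposited a CPM table of 10693 genes, holding 88.8% to 91.7% of each library's counts, and 100% of its values were whole reads (tolerance 0.05 reads). The submitters' processing notes name Trim Galore 0.6.7, cutadapt 3.4, STAR 2.6.1d, Salmon 1.9.0, edgeR and the build mm10 among tools of all assays, without their roles. The letters BM in the column heads were read as blood monocyte because the titles name blood. The tables alone do not settle that reading against bone marrow. The tables held 0 columns of other samples.

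Counts were rounded and fitted with edgeR 4.0.16 (R 4.3.3; TMM, filterByExpr, quasi-likelihood test, group as the only term), adjusted by Benjamini-Hochberg within each comparison. The filter kept 12337 of 18544 genes with a count. The SE is the log2 fold change divided by the root of its F statistic. CPM were computed from the count table's library totals. The floor of 3 counts was 0.145 to 0.287 CPM and covers counting error only. The pipeline was tested on simulated data. Alternatives used DESeq2 1.42.0, limma-voom (limma 3.58.1), other scalings and filters, a replicate block and each library left out.

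The 9 genes, the pathway and marker lists and the tests were chosen with earlier results of these data known. Of the pathway list, genes called with at least 5 CPM over the 6 libraries compared were named, at most the 3 with the largest change per role and comparison. The 5 genes most alike needed a mean of at least 20 CPM. Sequences and coordinates are from RefSeq (GRCm38.p6), with promoters taken as the 250 bases before a start. Single results of some list genes are not reported here.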

Additional observations from a re-analysis of the deposited data

How the results depend on the processing

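For the 9 genes, 27 log2 fold changes were recomputed under 19 alternatives each, 2 of which (reads recovered from the CPM table, and C4b summed with C4a) were chosen after seeing the data. Of these 513 values, 476 kept direction and side of the threshold, 14 lost a call, 3 gained one and 20 changed sign, all 20 in results that were not called. The calls in LLC blood against healthy blood numbered 5, and 3 when a change of 2-fold or more was also required. With libraries left out they were 2 to 5 (2 without LLC blood 2 or 3, 3 without healthy blood 1 or LLC blood 1). Over all genes, the blood calls went from 2917 to 1494 without LLC blood 2 and 1577 without LLC blood 3. They were 1993 without healthy blood 1 and 2626 without LLC blood 1. The calls in LLC tumor against LLC blood stayed at 7 in each fit with a library left out, and those against healthy blood were 7 to 8. Of the wider list, 3 to 8 were called in blood, 14 to 18 in LLC tumor against LLC blood and 13 to 15 against healthy blood when libraries were left out. All-gene calls in these fits were 1494 to 5064, 6895 to 8636 and 7571 to 9423 in the same order. The cause of the lost calls was not tested.

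C5ar1 in LLC blood against healthy blood changed sign with DESeq2 size factors (-0.0092), upper-quartile factors (-0.046), DESeq2 (-0.011) and recovered reads (-0.00184), and ranged from -0.12 to 0.13 with libraries left out (-0.01 without healthy blood 2, -0.12 without healthy blood 3, -0.05 without LLC blood 2, -0.05 without LLC blood 3, -0.04 without LLC tumor 1). Cfb in LLC tumor against LLC blood was -0.060 with limma-voom and ranged from -0.20 (without LLC tumor 1) to 0.77 with libraries left out. Against healthy blood it was -0.08 with library totals only, -0.40 with limma-voom, and from -0.52 (without LLC tumor 1) to 0.50 with libraries left out, with -0.03 without healthy blood 1. C4b in LLC tumor against LLC blood was 0.0087 with DESeq2 size factors, 0.00090 with DESeq2, 0.00996 with limma-voom, and from -0.23 to 0.091 (without LLC tumor 1) with libraries left out, with 0.07 without LLC blood 2.

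With library totals only, the median of all genes moved to -0.23 in LLC tumor against LLC blood and -0.17 against healthy blood, and the share of calls that were higher from 48.3% to 36.3% and from 50.4% to 40.5%. With upper-quartile factors that share in blood went from 59.4% to 46.3%. The recovered reads gave 2579, 6928 and 7360 calls over all genes. The deviations of same-numbered libraries from their group means correlated at 0.297, 0.181 and 0.073 for the blood groups. They correlated at -0.078, 0.120 and -0.137 for LLC tumor and LLC blood, and at 0.076, 0.050 and 0.092 for LLC tumor and healthy blood. Different-numbered libraries ran from -0.308 to 0.165, from -0.137 to 0.174 and from -0.094 to 0.056 in the same order. Not every library correlated best with its own number. Whether the replicate numbers stand for a shared batch was not tested. With the replicate block 5, 7 and 8 of the 9 genes were called, beside 2788, 7455 and 8093 of all genes. C1qa had 20 to 39 counts per LLC blood library, which limits its precision there.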
